A study of Homo sapiens with 3 samples.

Results

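The 10 genes described here encode proteins of plasma lipoprotein particles and of their assembly: the apolipoproteins APOA1, APOA2, APOA4, APOB, APOC3, APOD, APOE, APOH and APOM, and MTTP, the microsomal triglyceride transfer protein. They were measured in the cell line Caco-2, which comes from a human colorectal tumour and can take on features of absorptive enterocytes. The genes were chosen by function with earlier results of the same arrays known, among them the lower APOD level with both hairpins, so every difference from control below is a description and carries no test. All probe sets that the platform annotation gives to a single one of these symbols were taken, which gave 25 of the 49395 probe sets on the array and 10 of 18132 genes.

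The knockdown cultures were Caco-2 cells expressing the short hairpin RNA shOCC-1-1 (called line 1, n = 1 array) and Caco-2 cells expressing shOCC-1-2 (line 2, n = 1 array), both labelled as OCC-1 knockdown. They were set against Caco-2 cells expressing the non-target hairpin shCTRL (called control, n = 1 array). All 3 cultures had received their hairpin by lentivirus, had been kept in 20% fetal bovine serum and treated for 5 days with puromycin (1 µg per ml) to select transduced cells, and were taken after a further 24 hours free of the drug, so the control carried the same viral and drug exposure. The labels do not say whether the lines are clones or mixed populations, and nothing marks them as repeats of a single culture.

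Apolipoproteins are the protein coat of lipoprotein particles, which carry triglyceride and cholesterol in water. In enterocytes and hepatocytes APOB is loaded with lipid in the endoplasmic reticulum by MTTP, which works as a complex with the disulfide isomerase P4HB, and the particle then leaves through COPII-coated carriers. The smaller exchangeable apolipoproteins of the A, C and E classes move between particles and steer enzymes and receptors, whereas APOD and APOM belong to the lipocalins, a family of small binding proteins, and APOH is a phospholipid-binding plasma protein.

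Each array gave 1 linear intensity per probe set, with a median of 182.5 in line 1, 183.6 in line 2 and 185.5 in the control. The targeted transcript, OCC-1 (C12orf75), had an intensity of 518 in line 1 and 397 in line 2, against 1219 in the control, which is 42.5% and 32.5% of control. A gene's level was read from its brightest probe set, and genes whose mean over the 3 arrays was at or above an intensity of 184, the median of all probe sets, were kept. All 10 genes and 22 of their 25 probe sets passed, beside 11329 genes in all. The 23 background control probe sets of the array, which match no transcript, ran up to 1780 in line 1, 2049 in line 2 and 2307 in the control, with medians of 98.0, 98.0 and 104.2, so part of a low intensity can be background. Their log2 difference from control went from 0.06 with few G and C bases to -0.37 with many in line 1, and from 0.04 to -0.23 in line 2. The base composition of the probes read here was not used, and its part in the results was not tested.

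A gene was called higher or lower when lines 1 and 2 were each 1.5-fold or more from control in a shared direction, the overlap that the study's design describes. Of the 10 genes 0 were called higher, where 1.36% of all genes were, and 1, APOD, was called lower, where 0.159% of all genes were. Both shares stand only as background, because APOD was known to be lower when the genes were chosen. The median log2 difference of the 10 genes was 0.13 in line 1 and -0.01 in line 2, beside -0.03 and -0.02 over all genes. After quantile normalization the medians of the 10 were 0.05 and -0.09, beside -0.05 and -0.03 over all genes, and after cyclic loess 0.06 and -0.07, beside -0.01 and 0.0048. In both lines 4 of the 10 were above control by any amount and 2 below it, with the other 4 split between the lines. Over all genes 36.5% were above and 45.7% below control in both lines.

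**Figure D1:**
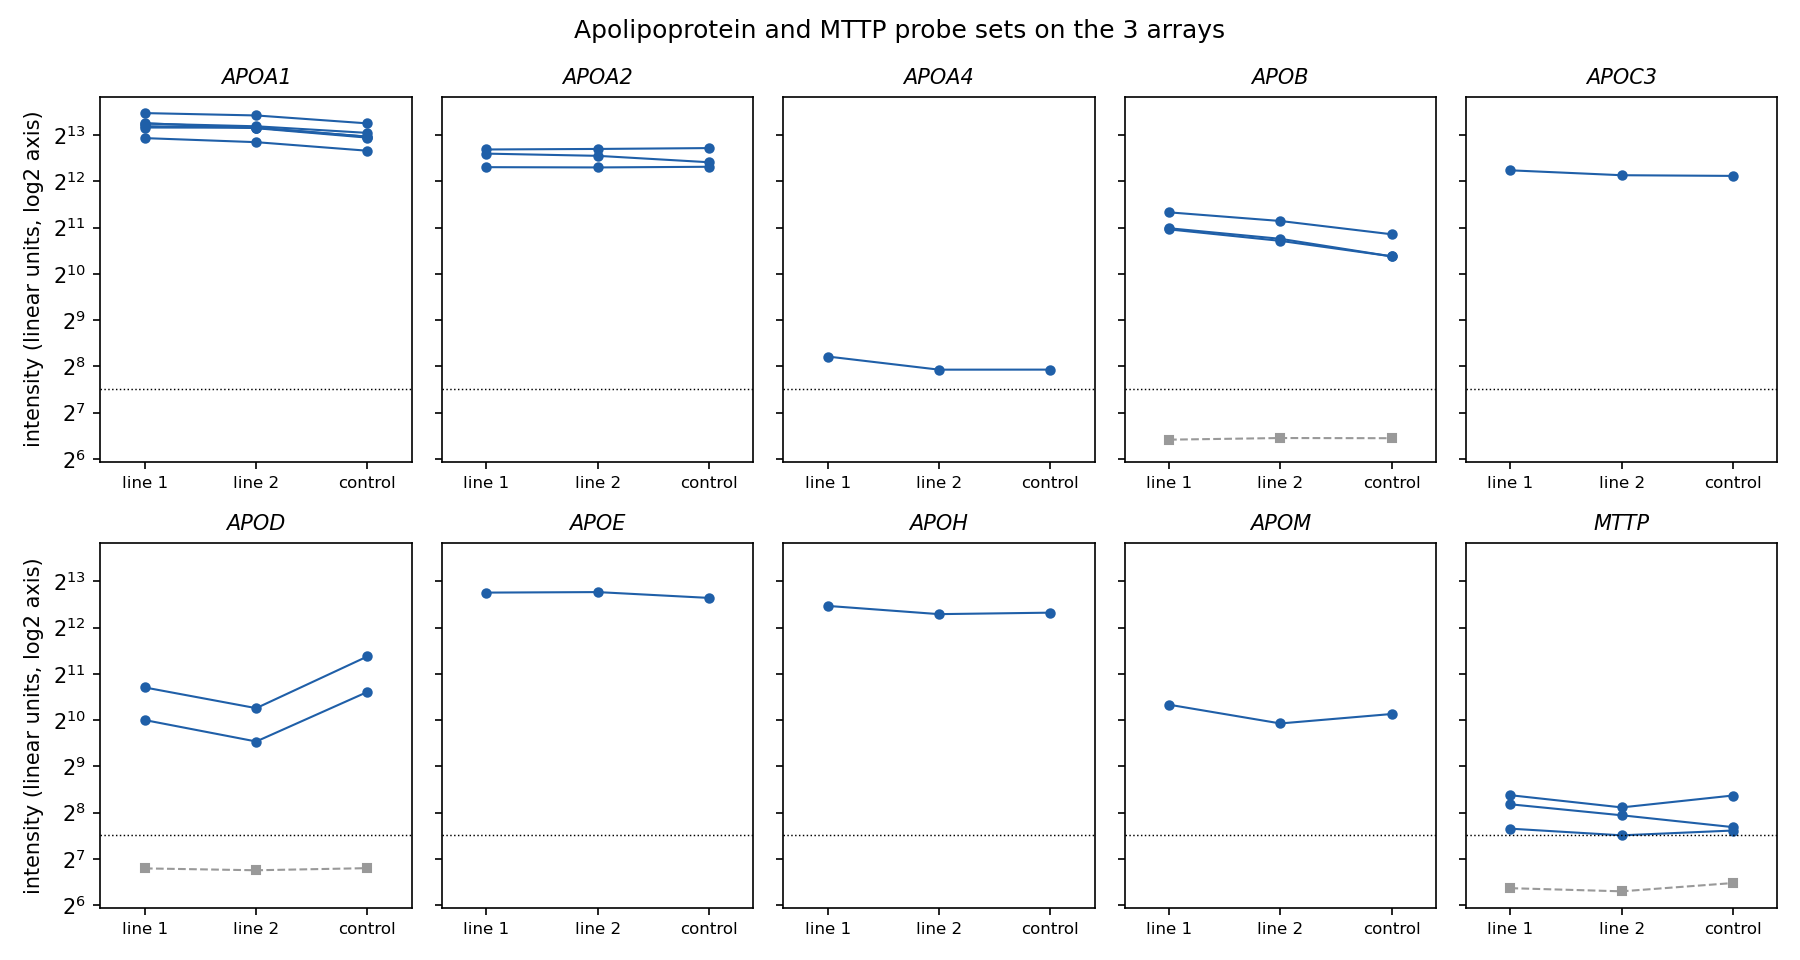
Intensity (linear units on a log2 axis) of each probe set of the 10 genes in line 1, line 2 and the control; each marker is 1 array, lines join the values of 1 probe set, the dotted line is the intensity filter at 184, and grey dashed probe sets lie below it. The upper 2 APOD probe sets are lowest in line 2 and highest in the control, and the upper 3 APOB probe sets run the other way against the control.

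APOB, the large structural protein on which chylomicrons and very low density lipoproteins are built, was higher in both lines without reaching the size of a call. Its brightest probe set had an intensity of 2572 in line 1 and 2259 in line 2, against 1852 in the control. The next one had 2027 in line 1 and 1730 in line 2, against 1330 in the control, and the last of the bright ones had 1992 and 1678, against 1331. On all 3 of them line 1 was highest and the control lowest. As a percentage of control they stood at 139%, 152% and 150% in line 1 and at 122%, 130% and 126% in line 2. The middle probe set passed 1.5-fold in line 1, as 2.07% of all named probe sets above the filter did, and none did in line 2, where 1.91% of them did. For the brightest probe set the mean log2 difference from control was 0.38 ± 0.13 (SD, n = 2 lines), and among all genes this difference lay at percentile 95.7 in line 1 and 89.8 in line 2. The remaining APOB probe set was dim, with 85.5 in line 1, 87.6 in line 2 and 87.3 in the control, and showed no such order. Probe sets of a gene can share probes and are not replicates. In a bulk culture more RNA per cell and more cells that express a gene cannot be told apart, which holds for all values here.

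MTTP, which transfers lipid onto APOB, was dim, and its probe sets disagreed. The brightest had 332 in line 1 and 277 in line 2, against 331 in the control, so that line 2 was the low one. Another had 290 in line 1 and 246 in line 2, against 206 in the control, which put the lines at 141% and 119% of control, in the same order as APOB. The remaining probe set above the filter stood at 103% and 93.1% of control, and the dim one at 92.6% and 88.3%. All 4 were higher in line 1 than in line 2. Their intensities in the control ran from 89.2 to 331, where the background control probe sets had a median of 104.2.

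The annotation holds different starts for MTTP, and the 150 bases before the downstream one are shown with those before APOH because, of the windows found for these genes, these are the only ones that held any of the 3 motifs searched. The sequences are from RefSeq (GRCh38.p14), 9 windows for APOA2, APOA4, APOE, APOH, APOM and MTTP. Capitals mark matches on either strand to any of the motifs, and no matches overlap. The nuclear receptor half-site was searched as AGGTCA. The letters for GATA factors were AGATAA. The TATA box was searched as TATAAA.
MTTP, chr4:99574674-99574823, plus strand: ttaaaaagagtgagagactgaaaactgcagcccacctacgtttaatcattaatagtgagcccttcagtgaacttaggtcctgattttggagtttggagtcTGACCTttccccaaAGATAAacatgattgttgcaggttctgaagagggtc
APOH, chr17:66229416-66229565, minus strand: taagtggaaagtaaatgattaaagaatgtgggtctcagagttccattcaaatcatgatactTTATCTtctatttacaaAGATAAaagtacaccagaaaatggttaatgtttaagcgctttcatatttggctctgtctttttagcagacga
The MTTP window held the nuclear receptor half-site and the GATA letters, and the APOH window held the GATA letters at 2 places. Of 35116 windows of this length before RefSeq gene starts, 7.63% held the nuclear receptor half-site, 5.17% the GATA letters and 6.71% the TATA box. A match describes letters in the window and not a site in use.

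APOA1, the main protein of high density lipoprotein, was higher in both lines on all 6 of its probe sets, by little. The brightest had 11368 in line 1 and 10975 in line 2, against 9745 in the control, and the control was the lowest array on each of the 6. They ran from 115% to 124% of control in line 1 and from 110% to 115% in line 2. Names of 4 of the 6 end in _x_at, which marks probes that may also match other transcripts. The bright end of the arrays as a whole was shifted the same way: 375 genes with a mean intensity of at least 4000, a bound chosen after seeing the data, had a median log2 difference of 0.08 in line 1 and 0.10 in line 2. After quantile normalization, which removes that shift, the mean difference of APOA1 was 0.05 against 0.20 as deposited. After cyclic loess, which also removes it, the difference was 0.09.

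APOA2, also a protein of high density lipoprotein, gave no order that its probe sets shared. The brightest had 6593 in line 1 and 6646 in line 2, against 6732 in the control, and another had 5059 and 5039, against 5089. The remaining one had 6196 in line 1 and 5994 in line 2, against 5446 in the control, at 114% and 110% of control. The first pair are named _x_at and the last is not.

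APOE, a ligand of receptors of the low density lipoprotein receptor family, had 6909 in line 1 and 6962 in line 2, against 6381 in the control, on its only probe set, an _x_at one. Both lines were above control, at 108% and 109%, close to the shift of bright genes given above, and the mean log2 difference was 0.02 after quantile normalization and 0.04 after cyclic loess, against 0.12 as deposited. APOC3, which restrains lipoprotein lipase, had 4825 in line 1 and 4484 in line 2, against 4438 in the control. Line 2 and the control thus lay close together, and after quantile normalization or cyclic loess line 2 was below the control (log2 -0.06 and -0.05).

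APOA4, an apolipoprotein of intestinal chylomicrons, had 297 in line 1 and 243.8 in line 2, against 244.0 in the control. Line 1 alone was high, at 122% of control. The genes APOA1, APOC3 and APOA4 lie next to each other in the RefSeq gene order, and in each of them line 1 was the highest array. Line 1 was also the highest array for APOB, APOH, APOM and MTTP, which are not among these adjacent genes, so the order is not particular to them. APOA5, next to APOA4, was below the filter, at 172 in line 1 and 175 in line 2, against 183 in the control.

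APOD, a lipocalin that binds small hydrophobic molecules, had the largest difference of the 10 genes. Its brightest probe set had an intensity of 1669 in line 1 and 1224 in line 2, against 2657 in the control. The other bright one, an _x_at probe set that may also match other transcripts, had 1024 and 743, against 1562. Both put the control highest and line 2 lowest. They stood at 62.8% and 65.6% of control in line 1 and at 46.1% and 47.6% in line 2. For the brightest the mean log2 difference was -0.89 ± 0.32 (SD, n = 2 lines), at percentile 0.137 of all genes in line 1 and 0.0221 in line 2. A dim probe set, at 111.1 in line 1 and 108.0 in line 2, against 111.5 in the control, did not show the difference, and when all 3 were averaged APOD was at 0.74 of control in line 1 and 0.60 in line 2, which no longer reached 1.5-fold in line 1.

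The 5 other genes whose differences in lines 1 and 2 were closest to those of APOD, by Euclidean distance on the log2 scale over the 3 arrays and among 11319 genes, were ABHD10, AKR1C1, PHF19, GPX2 and TFF1. ABHD10, a mitochondrial hydrolase, was nearest at a distance of 0.12, with 600 in line 1 and 429 in line 2, against 891 in the control. The rest lay at 0.30 to 0.34. GPX2, a glutathione peroxidase of the gut, had 1132 in line 1 and 1062 in line 2, against 2270 in the control. AKR1C1, an aldo-keto reductase, had 963 in line 1 and 940 in line 2, against 1693 in the control. With 2 differences per gene this likeness says only that the levels moved by similar amounts.

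APOM, the other lipocalin, which binds to high density lipoprotein, went opposite ways in the lines. It had 1289 in line 1 and 974 in line 2, against 1122 in the control, or 115% and 86.8% of control, and the mean log2 difference was less than its spread (-0.0017 ± 0.29, SD, n = 2 lines). APOH, abundant in liver, had 5661 in line 1 and 5005 in line 2, against 5116 in the control, at 111% and 97.8%. For both, line 1 was highest and line 2 lowest. APOM and APOH were each read by 1 probe set.

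**Figure D2:**
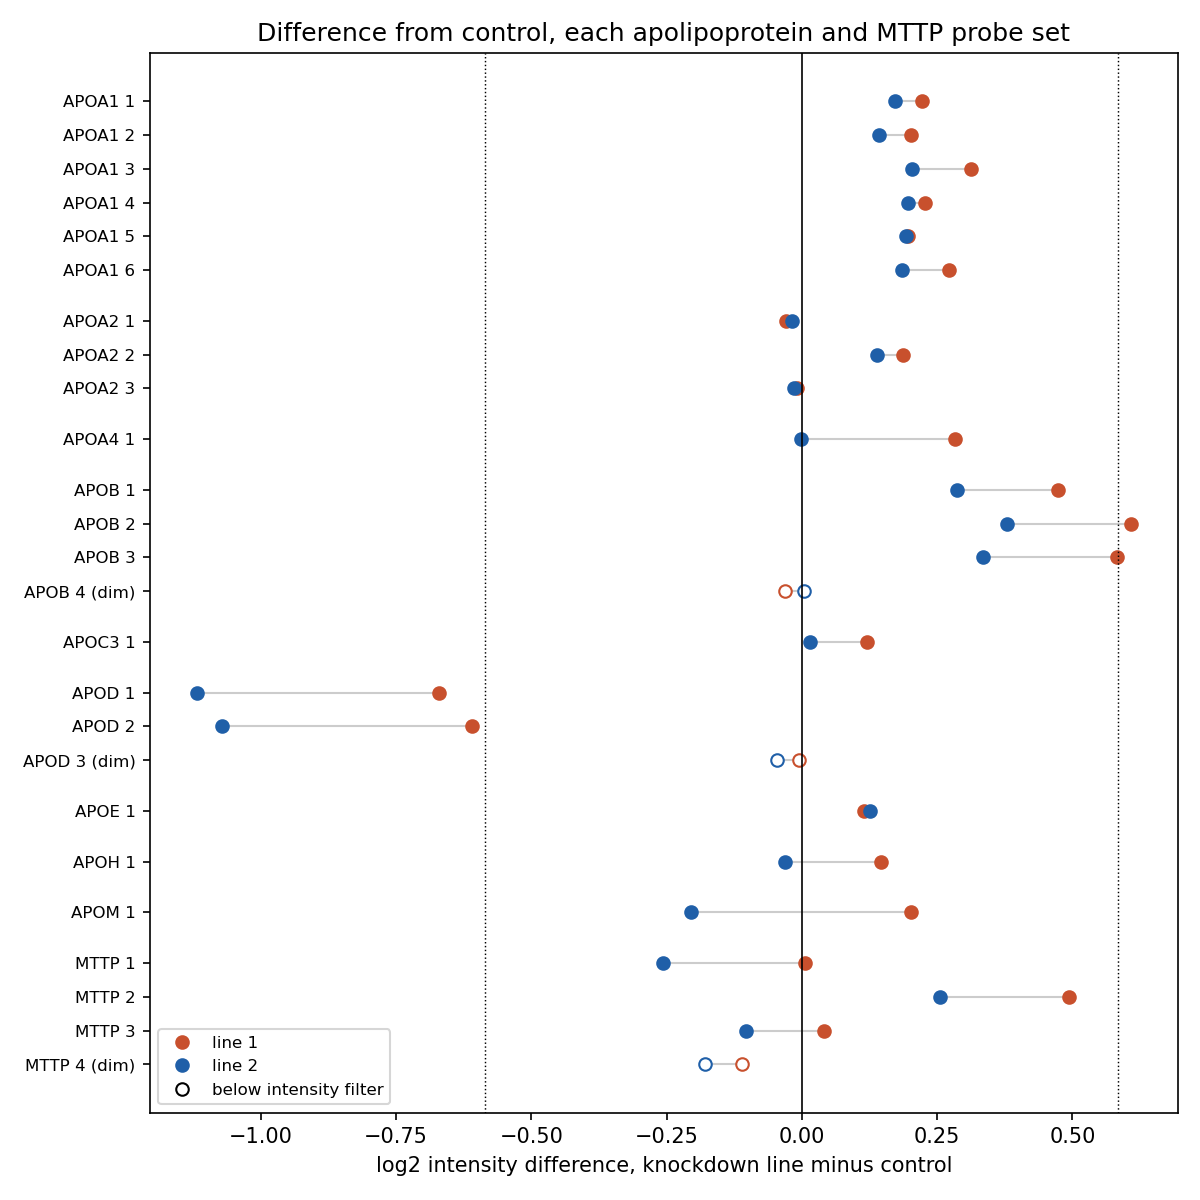
Log2 intensity difference from control for each probe set, numbered from the brightest down within a gene, in line 1 (orange) and line 2 (blue); open points lie below the intensity filter and dotted lines mark 1.5-fold. Only the 2 bright APOD probe sets pass 1.5-fold in both lines, and the 6 APOA1 and 3 bright APOB probe sets are on the higher side in both.

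Between the knockdown lines, line 1 was the higher one for 8 of the 10 genes, where 52.3% of all genes were higher in line 1. The difference, line 1 minus line 2 in log2, was 0.45 for APOD, 0.41 for APOM, 0.28 for APOA4, 0.26 for MTTP, 0.19 for APOB and 0.18 for APOH. These 6 lay between percentiles 93.8 and 99.7 of all genes, whose SD of this difference was 0.11. APOC3 was at 0.11 and APOA1 at 0.05, while APOA2 and APOE were both at -0.01. The median over the 10 genes was 0.18, against 0.01 over all genes. Among the lists of other lipoprotein genes given below, this median ran from -0.06 for APOB mRNA editing to 0.16 for enterocyte lipid uptake. In the uptake list line 1 was the higher one for 6 of 8 genes. Each line is a single array with its own hairpin, so hairpin, culture and array cannot be told apart here, and no test was made.

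**Figure D3:**
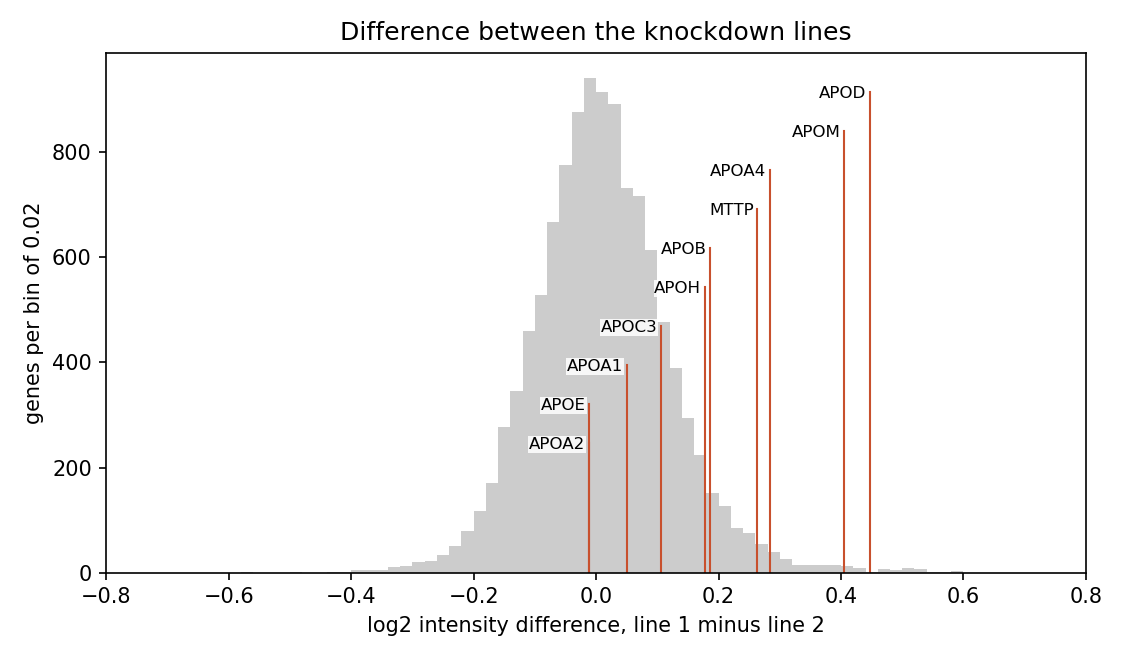
Log2 intensity difference between line 1 and line 2 for all 11329 genes (grey histogram, genes per bin of 0.02), with the 10 genes marked by labelled vertical lines whose height has no meaning. The marked genes run from -0.01 to 0.45, and 8 of them are above 0.

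**Figure D4:**
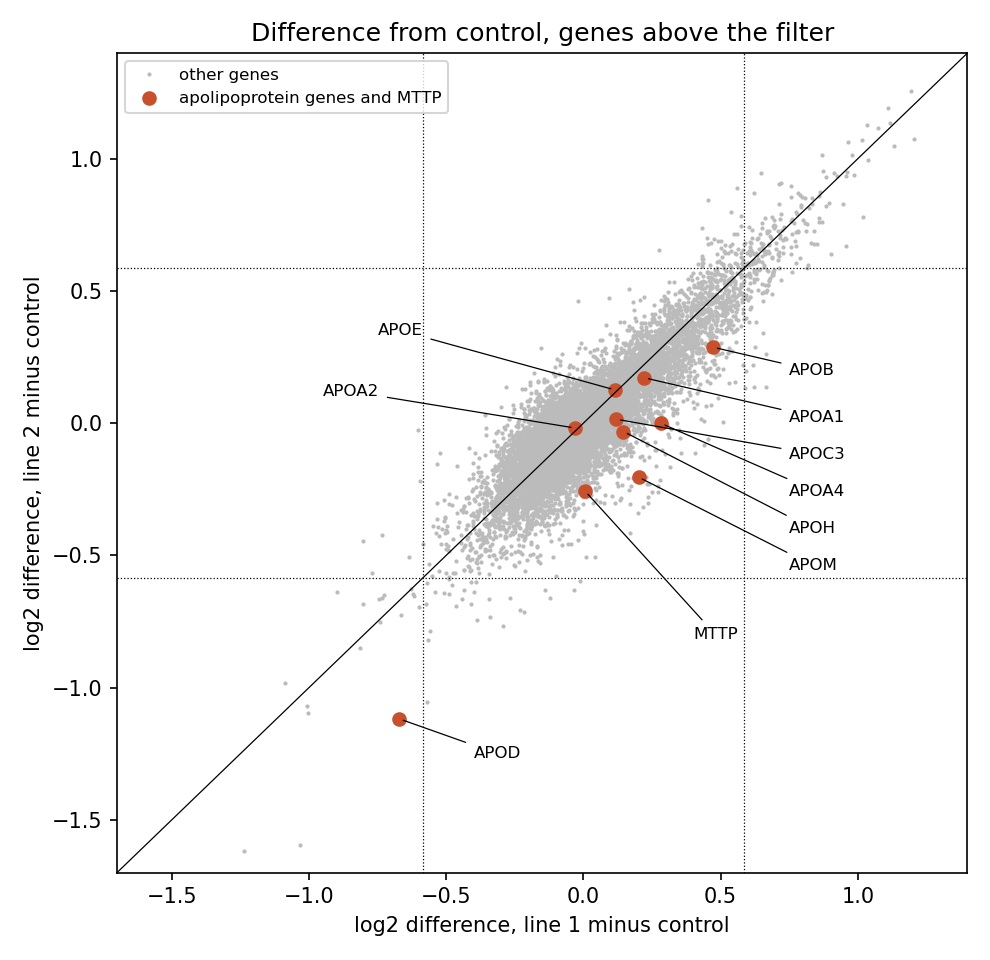
Log2 difference from control in line 1 (horizontal axis) and line 2 (vertical axis) for the genes above the filter; orange points are the 10 genes, dotted lines mark 1.5-fold and the diagonal marks equal differences. Both axes share the control array, so the spread along the diagonal is partly built in; APOD lies in the lower left corner and most of the other labelled genes lie under the diagonal.

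Other genes of lipoprotein metabolism were taken as lists, which like the 10 genes were drawn up with earlier results of these arrays known. Over all genes above the filter 1.36% were called higher and 0.159% lower, so 0 calls in lists this short do not set them apart. Of 17 further apolipoproteins and related genes 7 passed the filter, and 0 were called in either direction. Their medians were -0.08 in line 1 and -0.12 in line 2. CLU, the extracellular chaperone clusterin, also called apolipoprotein J, had 1160 in line 1 and 1100 in line 2, against 1422 in the control. APOOL, a mitochondrial inner membrane protein, stood at 0.84 and 0.80 of control, and its other probe set at 0.96 and 0.86. LPA, dim, stood at 0.88 and 0.92. APOC1, which neighbours APOE and is carried on the same particles, had 4514 in line 1 and 4073 in line 2, against 4664 in the control, below control where APOE was above it as deposited. The 3 other APOC1 probe sets had medians of 0.97 and 0.96 of control, with the highest at 1.05 and 1.02.

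Genes of lipoprotein assembly, lipidation and secretion had 25 of 29 members above the filter and 0 called, with medians of 0.01 and -0.02. CIDEB, a lipid droplet protein known in mouse liver to act in the lipidation of very low density lipoprotein, was the lowest, with 736 in line 1 and 687 in line 2, against 1034 in the control. Its other probe set stood at 0.80 and 0.74 of control. The COPII coat genes SEC24B (1.38 and 1.39 of control) and SEC23A (1.35 and 1.43) came next by the smaller of their 2 differences and were higher, but their other probe sets had medians of 1.06 and 1.08 for SEC24B and 1.00 and 0.98 for SEC23A. SAR1A, which starts the COPII coat, stood at 1.21 of control in line 1 and 1.57 in line 2, with medians of 0.87 and 0.77 for its other probe sets, and was named after its values were seen. P4HB, the partner of MTTP, had 5174 in line 1 and 5095 in line 2, against 5658 in the control, but its 5 other probe sets had medians of 1.10 and 0.996 of control.

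Among 8 of 14 genes of enterocyte lipid uptake that passed, 0 were called, and the medians were -0.02 and -0.13. FABP1, the fatty acid binding protein of liver and intestine, had 3027 in line 1 and 2680 in line 2, against 3729 in the control, and its other probe set stood at 0.78 and 0.71 of control. The cholesterol transporter NPC1L1 was at 0.90 and 0.78, and its other probe set at 0.86 and 0.94. The high density lipoprotein receptor SCARB1 was at 1.06 in both lines, but its 2 other probe sets had medians of 0.98 and 1.02. Lipoprotein remodelling genes had 8 of 16 above the filter and 0 called. ABCA1, which loads cholesterol onto APOA1, had 1076 in line 1 and 920 in line 2, against 794 in the control, in the same order as APOA1 and APOB. The endothelial lipase gene LIPG stood at 1.14 and 1.31 of control, but its other probe set at 0.80 and 0.76. PON2, a paraoxonase, stood at 0.93 and 0.94, but its 2 other probe sets had medians of 0.99 and 1.03.

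Receptor genes had 8 of 15 above the filter and 0 called. LRP2, the endocytic receptor megalin, was at 1.16 and 1.26 of control, and BSG at 0.95 and 0.91. LRP1 stood at 1.06 and 1.05 of control, but its other probe set at 0.94 and 0.92. Of the 10 genes listed for the editing of APOB mRNA and their relatives 6 passed and 0 were called. The editing enzyme APOBEC1 was below the filter, at 109.2 in line 1 and 105.7 in line 2, against 114.7 in the control. Its RNA-binding cofactor A1CF had 1962 in line 1 and 1863 in line 2, against 2279 in the control, and the other A1CF probe set stood at 0.96 and 0.85 of control. The relatives APOBEC3B and APOBEC3C stood at 1.24 and 1.41 and at 0.84 and 0.89 of control.

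Transcription factors known to act on apolipoprotein genes had 20 of 33 members above the filter. Of these 1 was called higher and 0 lower, beside 1.36% and 0.159% of all genes, and the medians were -0.05 and -0.06. The called gene was GATA6, a zinc finger factor of endoderm, with 2323 in line 1 and 2517 in line 2, against 1469 in the control, on its only probe set above the filter. CEBPB, a leucine zipper factor named after its values were seen, came next with 1167 in line 1 and 1247 in line 2, against 790 in the control, or 1.48 and 1.58 of control.

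**Figure D5:**
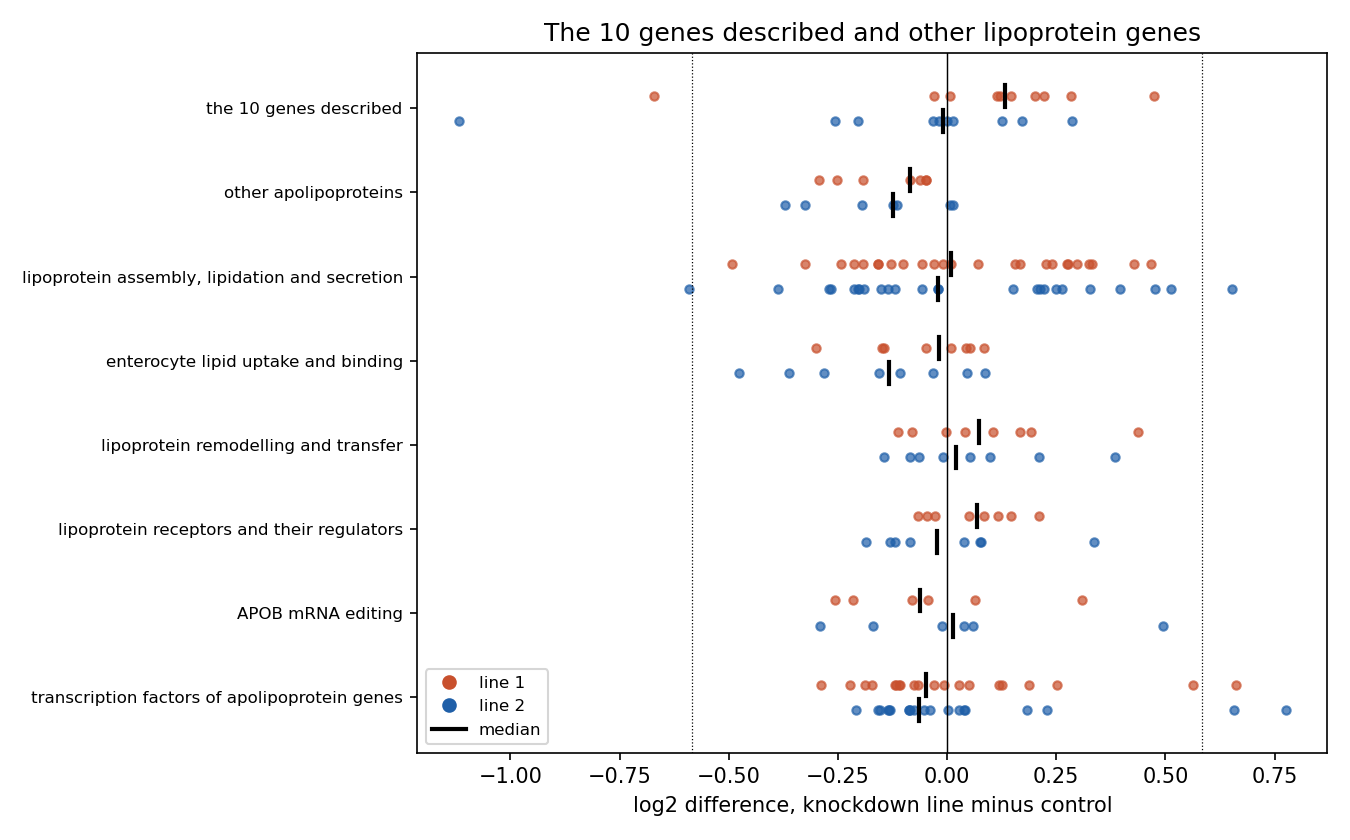
Log2 difference from control for genes above the intensity filter in the group of 10 and in 7 lists of other lipoprotein genes, in line 1 (orange) and line 2 (blue); each point is 1 gene, black bars are medians and dotted lines mark 1.5-fold. APOD is the only point past 1.5-fold on the lower side in both lines, and GATA6 the only gene past it on the higher side in both.

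The cells were checked against marker genes. All 13 markers of enterocytes and colon epithelium passed the filter, with a summed intensity of 43086 in line 1 and 43326 in line 2, against 39016 in the control. EPCAM was the furthest from control, at 1.43 and 1.504 of control. ALPI stood at 0.86 and 0.81, and the median log2 differences of the list were 0.03 and 0.04. Of the 13 markers 8 were above control in both lines by any amount and 3 below it, so they went both ways. KRT20 was close to the filter, at 185.4 in line 1 and 185.8 in line 2, against 182.2 in the control. Of 10 hepatocyte markers, listed because liver is the other main source of apolipoproteins, 9 passed, and their summed intensity was 21654 in line 1 and 21789 in line 2, against 21752 in the control. AHSG, a secreted plasma glycoprotein, was called higher, at 1.56 and 1.64 of control, whereas TTR, the thyroid hormone and retinol carrier transthyretin, stood at 0.59 and 0.68. Hepatocyte markers thus also went both ways, and over all genes 1.36% were called higher. Fibroblast markers summed to 1292 in line 1 and 1349 in line 2, against 1322 in the control, over 6 genes, of which 3 passed. Leukocyte markers summed to 3525 in line 1 and 3095 in line 2, against 3275 in the control, over 6 genes, of which 3 passed. PTPRC, a defining marker, was below the filter at 77.2 in line 1 and 80.1 in line 2, against 75.5 in the control. Most of the sum came from CD74, with 2187 in line 1 and 1947 in line 2, against 2296 in the control. CD14 also passed, with 215 in line 1 and 161 in line 2, against 199 in the control. LYZ, the lysozyme gene and a member of the leukocyte list, was called higher, with 740 in line 1 and 606 in line 2, against 381 in the control, and its other probe set stood at 1.304 and 1.04 of control. Of 4 endothelial markers 1 passed, and the sums were 608 in line 1 and 658 in line 2, against 663 in the control. The part of other cell types in the results was not tested.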

How the data were processed

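Total RNA of 3 Caco-2 cultures was measured on oligonucleotide arrays: OCC-1 knockdown (n = 2, different hairpins) and control (n = 1), grouped by the genotype label. Per the labels, RNA was extracted with Trizol and labelled with biotin. The authors' deposited values are linear intensities, 1 per probe set and array. RMA is named in the submitters' processing notes, while its settings and any background step are not stated there. No 2 arrays held identical values (0 of 3 pairs).

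Intensities were converted to log2 with no pseudocount and no further normalization. Of the probe sets 44988 had 1 gene symbol, and 1832 with several were not named; symbols are those of the platform annotation, and 0 differed from RefSeq. The brightest probe set stood for a gene, with a filter at log2 7.52. A gene was called at 1.5-fold in the same direction in both lines. Because there is 1 control array and the genes, lists and rules were chosen with earlier results of these data known, no p-value is given, and the spread is that between the 2 lines. The genes named were the 10, OCC-1, called members of each pathway list or otherwise the 3 with the largest shared difference, and the 5 most like APOD. Marker lists were given by counts and sums, with some members named after their values were seen, and other genes were named for their role or neighbourhood. The number of arrays limits the precision. Tools were Python 3.11.15 (numpy 2.4.6, pandas 2.3.3, matplotlib 3.10.9), and R 4.3.3 with limma 3.58.1 for the alternative normalizations.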

Additional observations from a re-analysis of the deposited data

How the results depend on the processing

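The call of APOD held under quantile normalization, cyclic loess, subtraction of each array's 5th percentile (floor 16) and normexp background correction (offset 50). Dropping the filter or lowering the threshold to 1.3-fold could not remove the call. It was lost with the mean of all probe sets (0 genes called lower), which adds a dim probe set, and at 2-fold (0 lower), where line 1 falls short. No setting called any of the 10 genes higher. With line 1 or line 2 left out, 0 were higher and 1 lower. APOD had to stay called in these settings, since it passed 1.5-fold in each line. Over all genes 212 were higher and 46 lower without line 1, and 219 and 24 without line 2. Over the alternatives the log2 difference of APOD lay between -1.12 and -0.59 and that of APOB between 0.29 and 0.47. The medians of the 10 genes moved by less than the spread between the lines in every alternative run; leaving out a line gives no other value for the median of the line that stays. Of 89 gene values under alternatives 81 stayed within 1 SD of the 2 lines, and the other 8 belonged to APOA1, APOA2 and APOE. Much of this count was fixed in advance and is no measure of stability. Leaving out a line cannot move a mean by more than this SD, and dropping the filter changes no value. Averaging probe sets or leaving out _x_at ones also changes nothing for a gene with a single probe set of another type. The sign of APOA2 turned with the mean of its probe sets (0.04) and, in an alternative chosen after seeing the data, without _x_at probe sets (0.16), against -0.02. Mean differences of other genes within their spread also changed sign: MTTP (-0.13) with the mean of probe sets (0.02) and without line 2 (0.0061), APOH (0.06) after quantile normalization (-0.04), cyclic loess (-0.01) and without line 1 (-0.03), APOC3 (0.07) after quantile normalization (-0.0013), APOM (-0.0017) after cyclic loess (0.0053) and without line 2 (0.20), and APOA4 (0.14) without line 1 (-0.00090). APOA1, APOB, APOD and APOE kept their sign in every alternative that gave them a value. Over all genes, 154 were higher and 18 lower; the mean of probe sets gave 44 and 9, percentile subtraction 283 and 36, 1.3-fold 602 and 106, and 2-fold 8 and 4. No paired analysis was possible because the control has 1 array. Low intensities, as for MTTP and APOA4, limit what can be read from these arrays, since background is a larger part of them.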

Other observations

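The genes on either side of the 10 in the RefSeq gene order were also read. Of 16 neighbours that are not among the 10, 9 passed the filter and 0 were called in either direction, beside 1.36% called higher and 0.159% lower over all genes. They stood between 0.83 and 1.39 of control in line 1 and between 0.82 and 1.31 in line 2. The highest was PPP1R2, an inhibitor of a protein phosphatase, beside APOD, with 1190 in line 1 and 1124 in line 2, against 859 in the control, opposite in direction to APOD. LDAH, a lipid droplet hydrolase beside APOB, had 418 in line 1 and 379 in line 2, against 423 in the control. TOMM40, a mitochondrial import pore gene beside APOE, had 907 in line 1 and 894 in line 2, against 1097 in the control.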
